A study of Homo sapiens with 16 samples.

Results

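KMS12PE clone D was compared with KMS12PE clones A and C, all of them venetoclax-resistant lines grown out of single cells. The comparison used 6 of the 16 libraries of the series: 2 of clone D, 2 of clone A and 2 of clone C, carrying the replicate numbers 1 and 3. The libraries were picked by their labels and not by any measured value, and clones A and C were given equal weight. The KMS27 line entered none of the values below. The parental KMS12PE libraries entered only the checks that fitted all 8 KMS12PE libraries.

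KMS12PE is a human multiple myeloma cell line with the t(11;14) translocation. Every library of the comparison came from this line and from cells kept in 100 nM venetoclax. In the study, sensitive cells had been exposed to a high dose of the drug, and drug-tolerant cells that expanded were cloned. The stated question was whether resistance in such clones is a genomic or a transcriptional adaptation. Each of the 3 groups is 1 clone, so a difference between them is a difference between 1 cell lineage and 2 others. Nothing in the labels says that the libraries of a clone came from separate cultures, so the p-values below measure the spread between libraries, which may be technical.

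Venetoclax occupies the groove of BCL2 that holds BH3-only proteins such as BIM. The freed BH3-only proteins activate BAX and BAK1, which open the outer mitochondrial membrane. Myeloma cells with t(11;14) overexpress cyclin D1 from the translocated allele and often depend on BCL2. Malignant plasma cells also carry the surface proteins BCMA, SLAMF7, CD38 and syndecan, and depend on IL-6 signalling and on adhesion to bone marrow stroma. Clones of 1 line can differ in all of these because each starts from a different cell of a mixed culture.

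The table listed 12592 genes with counts per gene, and 12256 of them were tested. Clone D had 6491027 and 10882837 counts in replicates 1 and 3, against 9081983 to 13674426 in the 4 libraries of clones A and C. A count of 3 equals 0.213 to 0.472 CPM (counts scaled to a common library total) in these libraries, and replicate values are given below as replicate 1 and then replicate 3. Of 10 plasma cell markers 9 were listed (CD27 was not), and their summed level was 3696 and 3572 CPM in clone D, against 2935 to 3473 CPM in clones A and C. None of the 7 B cell, 7 myeloid or 5 erythroid markers was listed. The T and NK cell markers CD3G and CD8A summed to 1.89 and 2.81 CPM in clone D, against 4.39 to 6.18 CPM in the other clones, with 7 of 9 markers not listed.

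Clone D stood apart from its sister clones across the transcriptome. The first principal component held 52.4% of the variance and placed the clone D libraries at 48.3 and 44.5, against -25.3 to -20.4 for the libraries of A and C. The root-mean-square log2 difference was 0.65 between clones D and A and 0.67 between clones D and C, against 0.39 between clones C and A. Replicate number ran along the second component, which held 23.4% of the variance.

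With edgeR's quasi-likelihood test and Benjamini-Hochberg adjustment over all tested genes, 1131 genes (9.23%) passed an adjusted p of 0.05 in clone D against the mean of A and C. Of these, 541 (4.41%) were higher and 590 (4.81%) lower. The test called 769 genes (6.27%) between D and A, 941 (7.68%) between D and C, and 140 (1.14%) between C and A. Genes called against the mean, against A and against C with 1 sign numbered 541 (4.41%), of which 204 (1.66%) were higher and 337 (2.75%) lower. These 541 genes are called set apart in clone D below. The remaining calls against the mean were shared with only 1 of the pairs in 173 genes (D and A) and 286 genes (D and C), and with neither pair in 131 genes.

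With the replicate number as a block, the calls numbered 3641 (29.7%), of which 1970 (16.1%) were higher and 1671 (13.6%) lower, and 2028 genes were set apart in clone D. All 1131 and all 541 calls made without the block were among them. Leaving out 1 library lowered the 1131 calls to 718 (without D replicate 1), 570 (D replicate 3), 539 (A replicate 1), 564 (A replicate 3), 624 (C replicate 1) and 623 (C replicate 3). The 541 genes set apart became 388, 283, 186, 212, 229 and 230 in the same order.

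Among the genes set apart, the falls were larger than the rises. The median log2 fold change was -1.61 over the 337 lower genes, against 0.86 over the 204 higher genes and 0.02 over all tested genes. At 8-fold or more, 99 genes (0.808% of those tested) were lower and 19 (0.155%) were higher. Genes with 0 counts in both libraries of a clone and at least 1 CPM on average in each other clone numbered 28 for clone D, 2 for clone A and 5 for clone C. Genes 8-fold below both other clones numbered 101 for D, 10 for A and 7 for C, and genes 8-fold above both numbered 14, 5 and 6. The table holds no gene that reached 5 counts in fewer than 4 of the 8 KMS12PE libraries, parental ones included, so a gene read in clone D alone could not be listed, whereas a gene missing from clone D alone could be. Clone D also had the shallowest library. The part of depth and of the listing in this asymmetry was not tested.

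**Figure D1:**
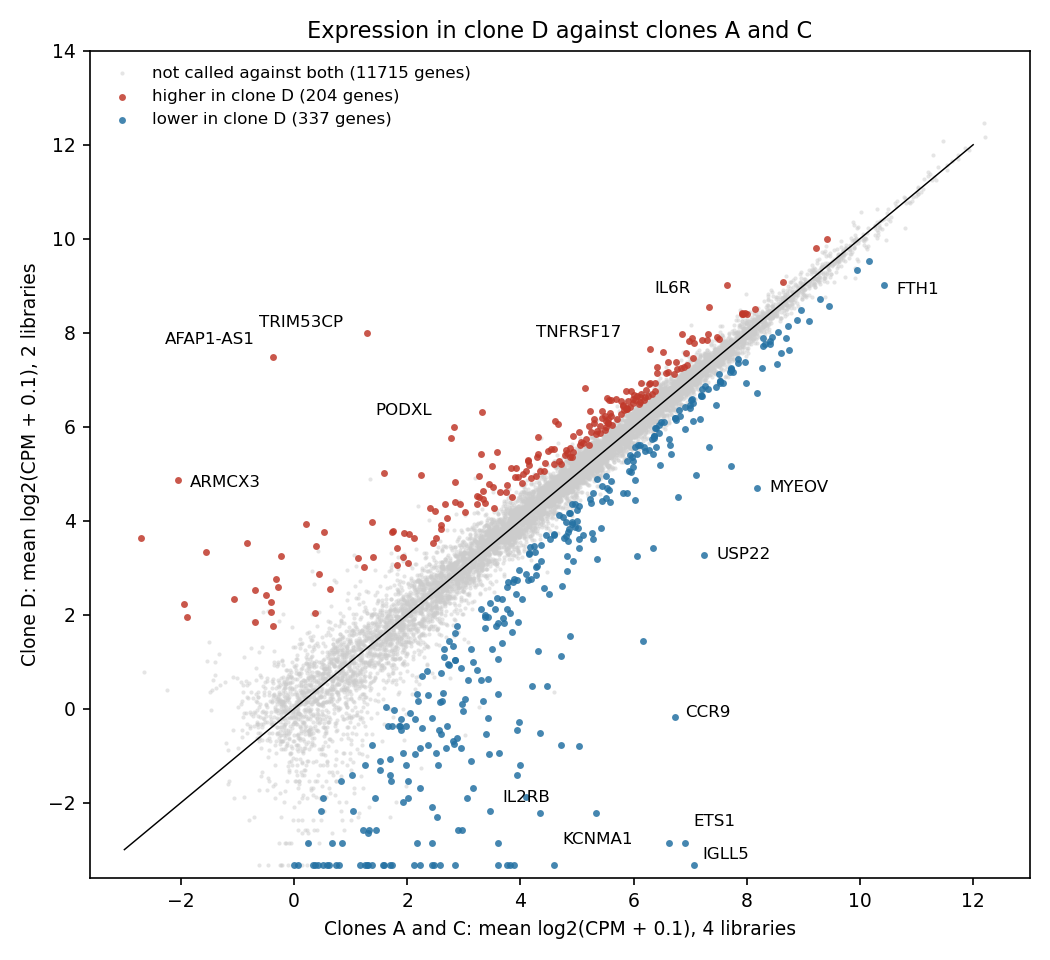
Each point is 1 tested gene, with the mean log2(CPM + 0.1) of clone D (2 libraries) on the vertical axis and of clones A and C (4 libraries) on the horizontal axis. Genes set apart in clone D are coloured (204 higher in red, 337 lower in blue), and the row of points at the bottom holds genes with 0 counts in both clone D libraries.

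The largest falls included genes at the immunoglobulin lambda locus on chromosome 22. IGLL5, an immunoglobulin lambda-like gene, had 0 counts in both clone D libraries, against 150 and 136 CPM in clone A and 129 and 124 CPM in clone C. Clone D was therefore at least 772-fold lower, set against 3 counts over its 2 libraries. IGLC1, a constant region of the lambda light chain, had 0 and 0.0907 CPM in clone D, against 111 and 106 CPM in clone A and 89.7 and 89.1 CPM in clone C. Its single clone D read gives a ratio of 1701-fold lower, with an exact 95% interval of 305 to 67186. Such bounds and intervals cover counting error only. IGLL5 (chr22:22887816-22896111) and IGLC1 (chr22:22895375-22895694) overlap in the annotation, so their reads cannot be fully told apart.

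Along chromosome 22 the tested genes on the PRAME side were low in clone D too, while ZNF280B and BCR farther out were not. This run of 4 consecutive tested genes was found by a search made after the values were seen. PRAME, a cancer-testis antigen (chr22:22547701-22559265), had 0 counts in both clone D libraries, against 10.7 and 14.7 CPM in clone A and 14.0 and 14.7 CPM in clone C, at least 79.8-fold lower. ZNF280A, a zinc finger gene (chr22:22513736-22520270), had 0.629 and 0.363 CPM in clone D, against 5.95 and 4.40 CPM in clone A and 5.12 and 4.75 CPM in clone C. On the side of ZNF280A, ZNF280B had 3.15 and 3.45 CPM in clone D, against 2.62 to 3.98 CPM in clones A and C, and was not called. On the side of IGLC1, GNAZ had 0.629 and 0 CPM in clone D, against 0.795 to 1.70 CPM (adjusted p = 0.210, edgeR), and BCR beyond it had 104 and 97.4 CPM, against 70.3 to 86.5 CPM (log2 fold change 0.42, adjusted p = 0.0352). Leaving out any library but A replicate 1 ended the BCR call (adjusted p = 0.0807 to 0.131). Past BCR, IGLL1, another immunoglobulin lambda-like gene, had 191 and 192 CPM in clone D, against 75.2 to 113 CPM in clones A and C. IGLL1 was set apart higher (log2 fold change 1.07, adjusted p = 0.000324 in edgeR). MMP11 farther on was called lower (log2 fold change -3.13, adjusted p = 0.0195 in edgeR) but was not set apart. Coordinates are those of RefSeq genes on GRCh38.p14.

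Genes set apart by 2-fold or more that followed each other along a chromosome formed 19 runs, with 41 of the 305 such genes that had a position, and 14 of the runs were lower in clone D and 5 higher. Most runs were pairs, and the longest had 4 genes. Among all genes set apart by 2-fold or more, 230 were lower and 87 higher. How many runs a random order of the 11386 tested genes with a position would give was not tested. On chromosome 2, COBLL1 and the voltage-gated sodium channel genes SCN3A and SCN2A formed a run of 3. SCN3A had 0 and 0.363 CPM in clone D, against 31.1 and 27.2 CPM in clone A and 52.7 and 58.7 CPM in clone C. On the X chromosome ARMCX6 and ARMCX3, armadillo-repeat genes, were both high in clone D. ARMCX3, which codes for a protein of the outer mitochondrial membrane, had 26.1 and 31.9 CPM in clone D, against 0.225 and 0.926 CPM in clone A and 0 counts in both clone C libraries. ARMCX6 had 10.7 and 14.1 CPM in clone D, against 3 reads in all over clones A and C, a ratio of 202-fold higher with an exact 95% interval of 68.3 to 989. The melanoma-antigen genes MAGEC1 and MAGEC2 on the X chromosome also formed a run that was higher in clone D.

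Some genes of these runs were abundant. FTH1, the iron-storing ferritin heavy chain, had 653 and 407 CPM in clone D, against 1840 and 1334 CPM in clone A and 1420 and 1021 CPM in clone C (log2 fold change -1.40 ± 0.25 SE, adjusted p = 0.0157 in edgeR). It has many processed pseudogenes that can share its reads. GAS6, the ligand of the TAM receptor kinases, had 41.5 and 53.5 CPM in clone D, against 140 to 195 CPM in clones A and C, and GAS6-AS2 beside it was lower too. ANXA6, a calcium-dependent membrane-binding annexin, had 31.3 and 31.2 CPM in clone D, against 124 to 154 CPM. The clone D libraries of FTH1, GAS6 and ANXA6 lay below all 4 others, and their calls held with any 1 library left out, at adjusted p-values of at most 0.0494 for FTH1, 0.00664 for GAS6 and 0.000367 for ANXA6.

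The promoters of PRAME and ZNF280A, which were low together, of ARMCX6, which was high with ARMCX3, and of KCNMA1, described below, are shown to let their CG content be read against the values. Each holds 250 bases before and 50 bases after the RefSeq start on GRCh38.p14, 5′ to 3′ on the gene's own strand (minus for all 4), with CG dinucleotides in capitals.
PRAME, chr22:22559216-22559515: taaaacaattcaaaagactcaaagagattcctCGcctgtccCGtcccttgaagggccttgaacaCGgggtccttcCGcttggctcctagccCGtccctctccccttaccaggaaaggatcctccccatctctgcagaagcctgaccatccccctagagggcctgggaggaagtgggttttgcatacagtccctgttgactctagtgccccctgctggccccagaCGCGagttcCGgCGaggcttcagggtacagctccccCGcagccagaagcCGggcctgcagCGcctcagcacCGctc
ZNF280A, chr22:22520221-22520520: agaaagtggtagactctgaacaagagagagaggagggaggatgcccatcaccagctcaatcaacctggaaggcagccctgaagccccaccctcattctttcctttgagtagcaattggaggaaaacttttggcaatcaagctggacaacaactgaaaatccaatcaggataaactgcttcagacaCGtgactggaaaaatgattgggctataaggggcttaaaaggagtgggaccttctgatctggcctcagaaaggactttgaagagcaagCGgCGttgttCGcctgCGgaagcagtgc
ARMCX6, chrX:101617951-101618250: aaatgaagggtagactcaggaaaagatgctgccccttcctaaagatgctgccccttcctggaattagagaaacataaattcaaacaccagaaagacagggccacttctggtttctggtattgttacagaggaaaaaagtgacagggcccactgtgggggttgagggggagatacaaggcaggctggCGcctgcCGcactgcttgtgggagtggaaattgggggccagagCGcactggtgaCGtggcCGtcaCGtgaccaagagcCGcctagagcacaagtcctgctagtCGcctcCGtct
KCNMA1, chr10:77637759-77638058: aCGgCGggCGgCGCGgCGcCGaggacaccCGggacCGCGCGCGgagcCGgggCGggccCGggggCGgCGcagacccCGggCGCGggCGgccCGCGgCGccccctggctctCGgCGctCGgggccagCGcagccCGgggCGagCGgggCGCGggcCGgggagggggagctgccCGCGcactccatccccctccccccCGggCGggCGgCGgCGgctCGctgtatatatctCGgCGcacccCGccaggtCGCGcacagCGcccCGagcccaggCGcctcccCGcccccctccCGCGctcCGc
These windows hold 13 CG dinucleotides for PRAME, 5 for ZNF280A, 9 for ARMCX6 and 54 for KCNMA1. DNA methylation was not measured here.

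ETS1, POU2AF1, MYCN and USP22, genes of transcription and chromatin, were lower in clone D. ETS1, a lymphoid ETS-family factor, had 0 and 0.0907 CPM in clone D, against 94.1 and 94.1 CPM in clone A and 163 and 147 CPM in clone C. Its 1 read in clone D gives a ratio of 2196-fold lower, with an exact 95% interval of 394 to 86747. FLI1, the ETS-family gene beside ETS1 on chromosome 11, had 98.3 and 92.8 CPM in clone D, against 102 to 103 CPM in clones A and C (log2 fold change -0.11, adjusted p = 0.411 in edgeR). Farther out, within 2 Mb of ETS1, ST14 and APLP2 were set apart lower. ST14 had 0.315 and 1.09 CPM in clone D, against 12.2 to 33.5 CPM (log2 fold change -4.66), and APLP2 fell by 0.88 log2 units. SENCR, NFRKB, PRDM10 and ZBTB44 in the same stretch were not called.

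POU2AF1, a coactivator of octamer factors in B lineage cells, had 0 counts in both clone D libraries, against 4.49 and 4.01 CPM in clone A and 4.59 and 5.39 CPM in clone C, at least 26.9-fold lower. MYCN, a MYC-family factor, had 0 counts in clone D, against 4.27 to 6.59 CPM in clones A and C, at least 32.0-fold lower. USP22, a deubiquitinase of the SAGA coactivator complex, had 7.24 and 12.6 CPM in clone D, against 157 and 148 CPM in clone A and 154 and 143 CPM in clone C. The USP22 libraries did not overlap, and the log2 fold change was -3.86 ± 0.18 (SE; adjusted p = 7.34e-05, edgeR).

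KCNMA1, BIN2, NAV1, MYO5B and LEFTY2 were lower in clone D as well. KCNMA1, the pore subunit of the large-conductance calcium-activated potassium channel, had 0 counts in clone D, against 22.01 and 21.5 CPM in clone A and 25.3 and 27.4 CPM in clone C, at least 140-fold lower. BIN2 (at least 90.1-fold) and the neuron navigator gene NAV1 (at least 82.8-fold) were likewise at 0 counts in clone D. MYO5B, an unconventional myosin of vesicle transport, had 0.787 and 0.272 CPM in clone D, against 30.8 to 35.4 CPM in clones A and C. LEFTY2, a secreted antagonist of Nodal signalling, had 2.52 and 2.72 CPM in clone D, against 65.1 to 80.6 CPM in the other clones.

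ACAP1, ARHGAP42 and FAM171A1 were also among the 12 largest falls above a mean of 3 log2 CPM, with 1.10 to 3.15 CPM in clone D, against 17.4 to 36.3 CPM in clones A and C. With any 1 library left out, the calls of ETS1, USP22, POU2AF1, MYCN, KCNMA1, BIN2, NAV1, MYO5B, LEFTY2, ACAP1, ARHGAP42 and FAM171A1 held. In these bulk libraries, fewer cells expressing a gene and less RNA per cell cannot be told apart. Without parental libraries, a fall in clone D and a rise in both A and C cannot be told apart either.

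**Figure D2:**
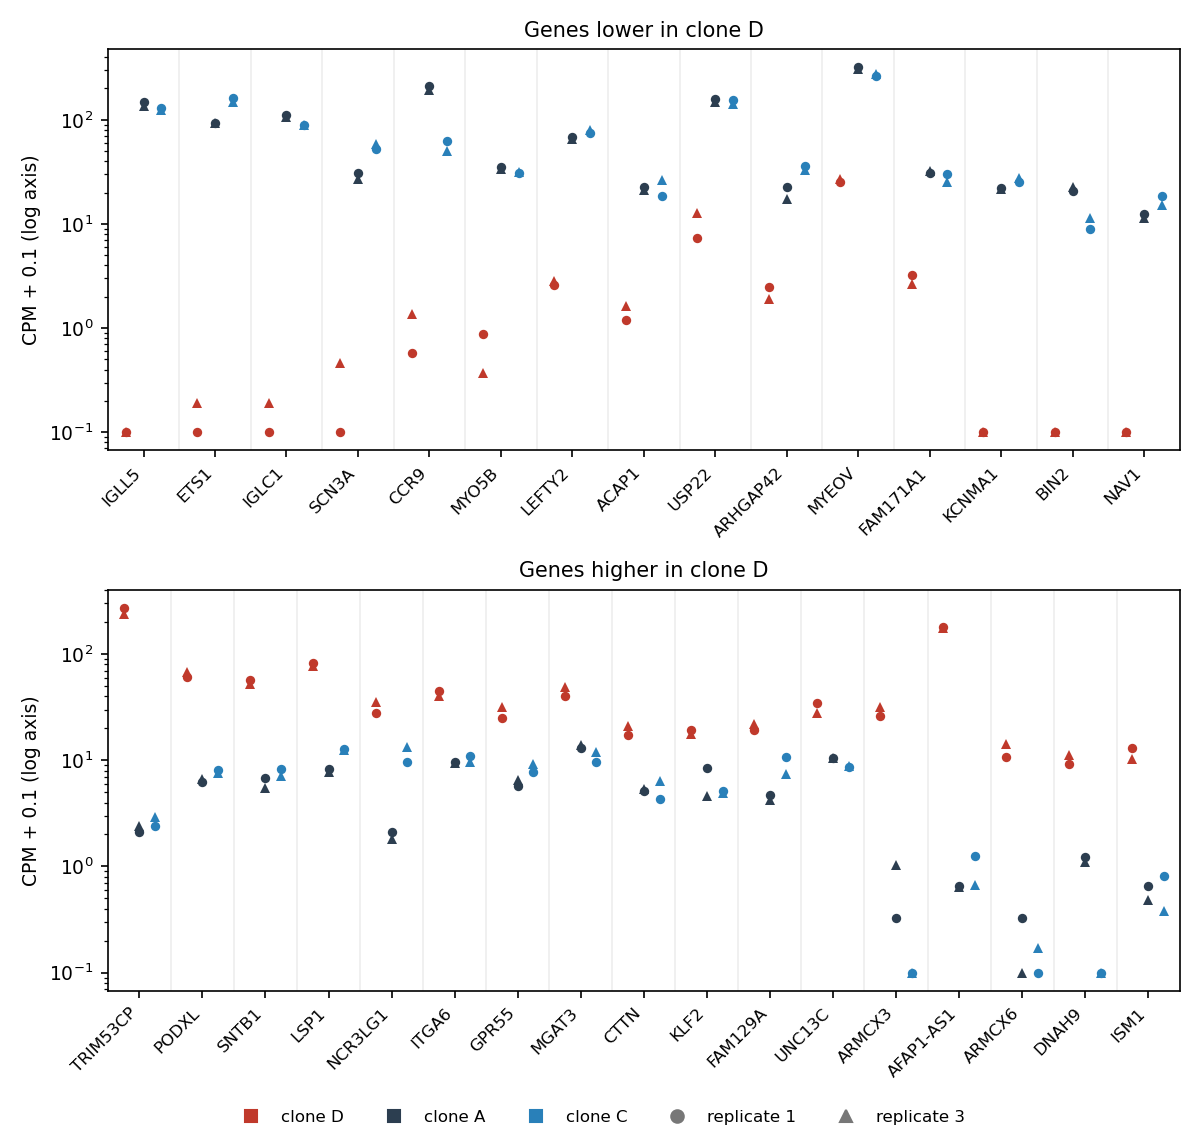
CPM + 0.1 on a log axis for the genes of the largest falls (upper panel) and rises (lower panel) in clone D. Each point is 1 library, with clone D in red to the left of clone A (dark) and clone C (blue), and the red points lie apart from all others for every gene shown; points at 0.1 are libraries with 0 counts.

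Clone D also expressed genes that were near background in its sister clones. TRIM53CP, a transcribed TRIM-family pseudogene on chromosome 11, had 272 and 239 CPM in clone D, against 2.02 and 2.32 CPM in clone A and 2.30 and 2.83 CPM in clone C (log2 fold change 6.74 ± 0.11 SE, adjusted p = 7.91e-07 in edgeR). The gene has close copies, so reads may be shared among them. AFAP1-AS1, a long RNA antisense to AFAP1, had 180 and 177 CPM in clone D, against 0.540 to 1.15 CPM in clones A and C. Whether the counting used strand is not given in the sources used here, and antisense reads cannot then be told from those of AFAP1. DNAH9, an axonemal dynein, had 9.13 and 11.1 CPM in clone D, against 1.12 and 1.00 CPM in clone A and 0 counts in clone C. ISM1, a secreted protein gene, had 12.9 and 10.2 CPM in clone D, against 0.283 to 0.707 CPM in clones A and C.

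Among rises above a mean of 3 log2 CPM were genes of the cell surface and the cytoskeleton. PODXL, which codes for the sialomucin podocalyxin, had 60.3 and 67.0 CPM in clone D, against 6.18 and 6.56 CPM in clone A and 7.95 and 7.51 CPM in clone C. The log2 fold change was 3.18 ± 0.10 (SE; adjusted p = 1.07e-05, edgeR). LSP1, an actin-binding protein of leukocytes, had 81.7 and 77.2 CPM in clone D, against 7.72 to 12.6 CPM in the other clones, and SNTB1, a syntrophin, had 56.8 and 51.6 CPM, against 5.33 to 8.22 CPM. CTTN, the actin regulator cortactin, had 17.3 and 21.1 CPM in clone D, against 4.24 to 6.31 CPM in clones A and C. GPR55, a lysophospholipid receptor, MGAT3, a glycosyltransferase that bisects N-glycans, the Krüppel-like factor KLF2, FAM129A and UNC13C were 1.70 to 1.99 log2 units higher, and their clone D libraries lay above all 4 others.

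CTTN and MYEOV both lie on the arm of chromosome 11 near CCND1, which the translocation drives in myeloma. MYEOV, a gene named for its overexpression in myeloma, had 25.3 and 26.7 CPM in clone D, against 318 and 308 CPM in clone A and 261 and 273 CPM in clone C (log2 fold change -3.47 ± 0.08 SE, adjusted p = 2.81e-06 in edgeR). CCND1 had 835 and 842 CPM in clone D, against 661 and 686 CPM in clone A and 602 and 633 CPM in clone C. Its log2 fold change was 0.38 ± 0.07 (SE; adjusted p = 0.0200, edgeR), but it was not called against clone A alone (adjusted p = 0.0838), and every library left out in turn ended its call (adjusted p = 0.0552 to 0.125). Of the other tested genes between MYEOV and CTTN, ORAOV1 (log2 fold change -0.02), FADD (0.14) and PPFIA1 (0.29) were not called, and the pseudogene IFITM9P (1.06, adjusted p = 0.0185) was higher, a call that ended with every library left out in turn (adjusted p = 0.0617 to 0.0880).

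The plasma cell identity genes split in direction. Of 20 tested, 4 were higher and 5 lower in clone D, with a median log2 fold change of -0.02, against 0.02 over all genes, of which 9.23% were called; with the replicate block 8 were higher and 7 lower, where 16.1% and 13.6% of all genes were, and 5 to 7 were called with any 1 library left out. TNFRSF17, which codes for BCMA, the receptor targeted by myeloma CAR T cells and antibodies, had 211 and 191 CPM in clone D, against 83.9 and 75.6 CPM in clone A and 81.0 and 73.7 CPM in clone C. Clone D lay above all 4 other libraries, as it did for 15.4% of tested genes, and the log2 fold change was 1.35 ± 0.08 (SE; adjusted p = 0.000201, edgeR). SLAMF7, the target of elotuzumab, had 199 and 257 CPM in clone D, against 126 and 133 CPM in clone A and 118 and 127 CPM in clone C (0.86 ± 0.11 log2 units, SE; adjusted p = 0.00389). The transcription factors IRF4 (0.40) and CREB3L2 (0.39) were the other members called higher, and every library left out in turn ended both calls (adjusted p up to 0.121 for IRF4 and 0.117 for CREB3L2).

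SDC1, which codes for syndecan, the standard plasma cell surface marker, had 177 and 153 CPM in clone D, against 251 and 223 CPM in clone A and 251 and 213 CPM in clone C. SDC1 lies on chromosome 2 in the 20 to 40 Mb window described below (median log2 fold change -0.35), and was not set apart. It fell by 0.51 on the log2 scale (SE 0.11; adjusted p = 0.0292, edgeR), with calls ended by leaving out A replicate 1, A replicate 3, C replicate 1 or D replicate 3 (adjusted p = 0.0608 to 0.149). JCHAIN, the joining chain of polymeric antibodies, had 425 and 442 CPM in clone D, against 805 and 838 CPM in clone A and 610 and 492 CPM in clone C, and was called against A but not against C; its call against the mean ended without A replicate 3 (adjusted p = 0.0506). PIM2, a serine/threonine kinase active in myeloma, had 90.8 and 85.8 CPM in clone D, against 148 to 214 CPM in clones A and C and fell by 1.00 on the log2 scale (adjusted p = 0.000399). ITGA4 (-0.56) and POU2AF1 were the remaining members called lower.

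Of 5 tested immunoglobulin genes, 3 were lower (IGLL5, IGLC1 and IGHG1) and 1 higher, a share of 80% against 9.23% of all genes. IGLL5 and IGLC1 overlap in the annotation, so their calls may rest on shared reads and are not separate. With the replicate block 1 was higher and 3 lower, where 16.1% and 13.6% of all genes were. IGLL1, higher in clone D, was not in this list. IGHG1, a heavy chain constant region, had 1.26 and 0.998 CPM in clone D, against 4.09 to 6.31 CPM in clones A and C. IGHV3-7, a heavy chain variable segment, was read in all 6 libraries, at 173 and 177 CPM in clone D, against 132 and 138 CPM in clone A and 130 and 131 CPM in clone C. Its log2 fold change was 0.40 ± 0.06 (SE; adjusted p = 0.0103, edgeR), and the call ended without A replicate 1 (adjusted p = 0.0676) or D replicate 3 (adjusted p = 0.0634).

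Antibody and cell therapy targets other than BCMA and SLAMF7 showed smaller or less even differences. Of the listed targets, BCMA and SLAMF7 included, 36.4% were called, against 9.23% of all genes (29.7% with the replicate block). TNFRSF17, SLAMF7 and CD200 were the members called higher, and SDC1, described above, was the member called lower. The list had 3 higher and 1 lower of 11 tested genes, with 2 to 4 called when any 1 library was left out; with the replicate block 4 were higher and 3 lower. CD38 had 517 and 509 CPM in clone D, against 409 and 386 CPM in clone A and 467 and 434 CPM in clone C (log2 fold change 0.28, adjusted p = 0.0609). It passed with the replicate block (adjusted p = 5.29e-05), with DESeq2 (adjusted p = 0.0136) and with scaling to library totals (adjusted p = 0.0269). GPRC5D, an orphan receptor targeted by bispecific antibodies, had 2.05 and 1.36 CPM in clone D, against 0.425 to 1.31 CPM in clones A and C, and was not called (adjusted p = 0.177). CD200 had 2.20 and 1.63 CPM in clone D, against 1.57 and 1.16 CPM in clone A and 0 counts in clone C. It was called against clone C and the mean but not against A, and its call against the mean ended without A replicate 1 (adjusted p = 0.0529) or A replicate 3 (adjusted p = 0.0591).

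Among 12 tested ligands of NK and T cells, 1 was higher and 1 lower (16.7% called, against 9.23% of all genes). With the replicate block 4 were higher and 2 lower, where 16.1% and 13.6% of all genes were. NCR3LG1, which codes for B7-H6, the ligand of the NK cell receptor NKp30, had 27.8 and 35.4 CPM in clone D, against 2.02 and 1.70 CPM in clone A and 9.63 and 13.1 CPM in clone C (log2 fold change 2.79 ± 0.18 SE, adjusted p = 0.000297 in edgeR). Clones C and A also differed for this gene (adjusted p = 0.00708), and clone D was the highest of the 3. TNFSF9, the ligand of the T cell costimulator 4-1BB, had 1.73 and 1.18 CPM in clone D, against 13.3 and 8.26 CPM in clone A and 6.18 and 6.87 CPM in clone C (log2 fold change -2.56, adjusted p = 0.00430).

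Cytokine receptor genes moved in both directions. Of their list 30% were called, against 9.23% of all genes (29.7% with the replicate block). Of 30 tested genes of interleukin receptors and JAK-STAT signalling, 4 were higher and 5 lower, with a median log2 fold change of 0.00; with the replicate block 10 were higher and 8 lower, and 5 to 8 were called with any 1 library left out. IL6R, the ligand-binding receptor chain of the myeloma growth factor IL-6, had 387 and 359 CPM in clone D, against 161 and 162 CPM in clone A and 161 and 159 CPM in clone C. The log2 fold change was 1.21 ± 0.07 (SE; adjusted p = 0.000114, edgeR), and the clone D libraries stood above all others. Its signalling partner IL6ST had a log2 fold change of -0.04 (adjusted p = 0.839), and STAT3, which IL-6 activates, one of 0.04 (adjusted p = 0.798).

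IL2RB, the beta chain of the IL-2 and IL-15 receptors, had 0.157 and 0.0907 CPM in clone D, against 12.7 and 9.96 CPM in clone A and 11.2 and 9.78 CPM in clone C. Its 2 reads in clone D give a ratio of 93.1-fold lower, with an exact 95% interval of 25.6 to 771. IL21R (log2 fold change 1.17), STAT5A (0.49) and IL15RA (0.78) were the other members called higher. PIM1 (-0.60), a kinase gene induced by STAT factors, SOCS2 (-0.53), a feedback inhibitor of the pathway, IL2RG (-0.37), the common gamma chain, and PIM2 were called lower. The call of IL15RA ended with every library left out in turn (adjusted p = 0.0517 to 0.179) and that of IL2RG with any but C replicate 3 (up to 0.156). STAT5A lost its call without A replicate 1, A replicate 3, C replicate 1 or D replicate 3 (adjusted p up to 0.0768), and IL21R without D replicate 3 (adjusted p = 0.0683).

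Adhesion and homing genes were mostly lower where they were called. Of 23 tested, 3 were higher and 8 lower in clone D, a share of 47.8% against 9.23% of all genes, with a median log2 fold change of -0.31; 8 to 10 were called with any 1 library left out. With the replicate block 4 were higher and 12 lower, where 16.1% and 13.6% of all genes were. The chemokine receptors described here were named because they were called, so their directions are no count of the family. CCR9, the gut-homing receptor of lymphocytes and not a member of the list, had 0.472 and 1.27 CPM in clone D, against 211 and 191 CPM in clone A and 62.4 and 50.6 CPM in clone C (log2 fold change -6.76 ± 0.24 SE, adjusted p = 2.16e-05 in edgeR). CCR2, the monocyte chemoattractant receptor, had 5.35 and 6.81 CPM in clone D, against 43.7 and 43.4 CPM in clone A and 18.6 and 14.0 CPM in clone C. Both genes were also lower in clone C than in clone A, so the 3 clones were ranked A, C, D. CXCR3 had 0 counts in clone D, against 1.56 to 3.01 CPM in the other clones, at least 12.7-fold lower.

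CXCR4, the receptor for the marrow chemokine CXCL12, went the other way, with 147 and 136 CPM in clone D, against 74.5 and 73.7 CPM in clone A and 105 and 89.4 CPM in clone C (log2 fold change 0.74 ± 0.08 SE, adjusted p = 0.00300 in edgeR). ITGA6, an integrin alpha chain that forms laminin receptors, had 44.8 and 40.2 CPM in clone D, against 9.42 to 10.9 CPM in clones A and C (2.11 ± 0.11 log2 units, SE; adjusted p = 0.000114). The other integrin chains called were lower: ITGA4 (log2 fold change -0.56), ITGB1 (-0.53), ITGAL (-1.23) and ITGB7 (-3.20). EPCAM, an epithelial adhesion molecule, had 54.6 and 44.1 CPM in clone D, against 93.7 to 110 CPM in the other clones, JAM3 was lower (-0.64), and the receptor phosphatase PTPRK was higher (1.49). The JAM3 call ended with every library left out in turn (adjusted p = 0.0549 to 0.181), that of ITGB7 without D replicate 1 (0.0570) or D replicate 3 (0.0501), and that of ITGAL without D replicate 3 (0.0501). ITGA4 and ITGB1 are the chains of VLA-4, the fibronectin and VCAM-1 receptor, and their clone D libraries lay below all 4 others, as for 15.3% of tested genes.

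**Figure D3:**
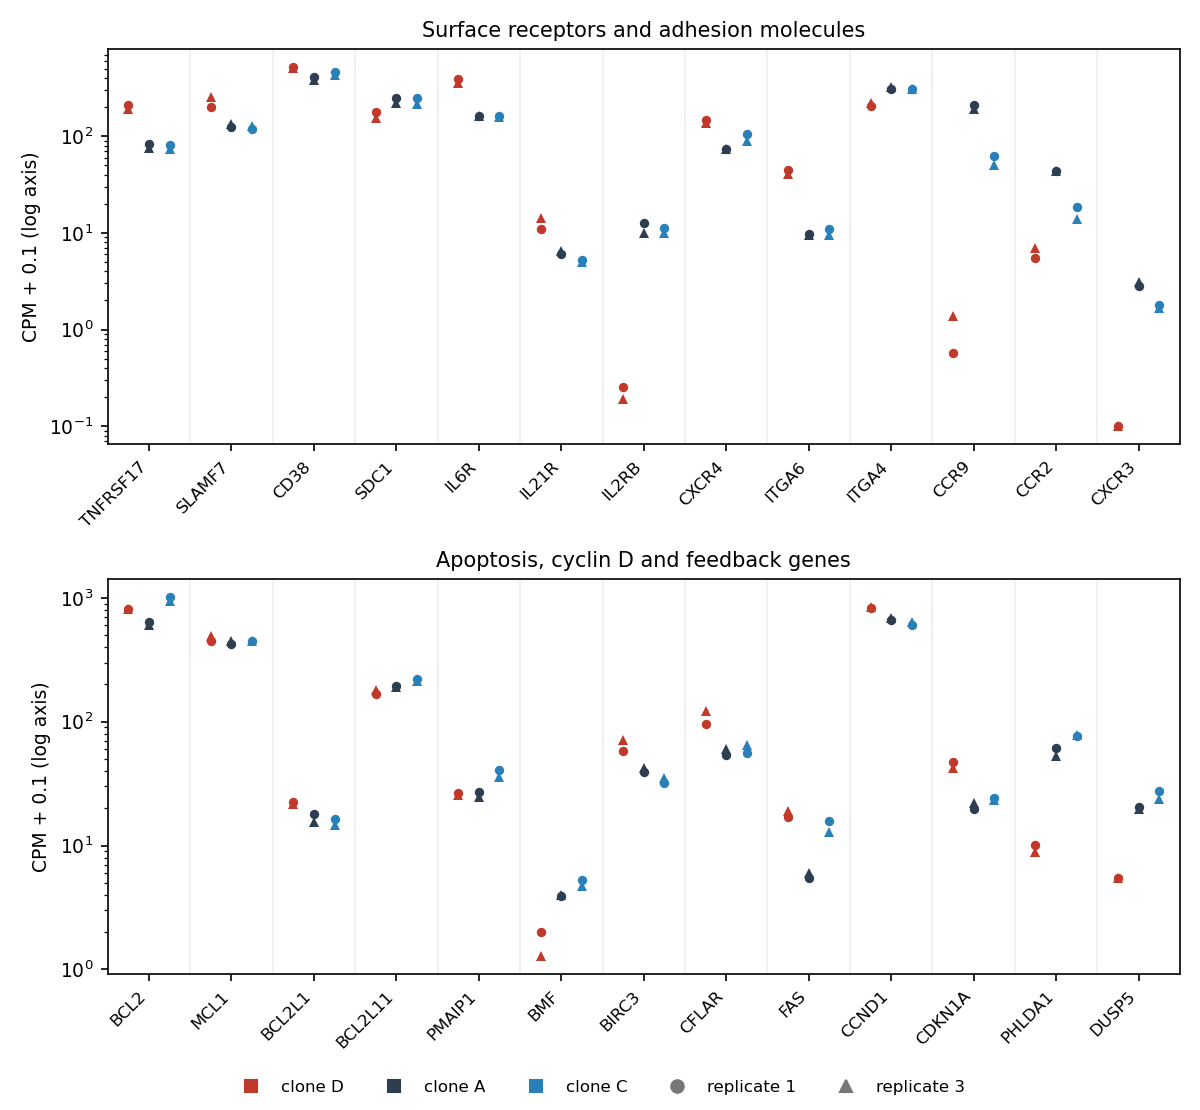
CPM + 0.1 on a log axis for surface receptors and adhesion genes (upper panel) and for apoptosis, cyclin D and feedback genes (lower panel), 1 point per library, clone D in red to the left of clones A and C. Clone D lies apart for TNFRSF17, IL6R, IL2RB and CCR9, and between or beside the other clones for BCL2 and MCL1.

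The drug target and its anti-apoptotic relatives were not called in clone D. BCL2 had 813 and 820 CPM in clone D, against 634 and 599 CPM in clone A and 1016 and 947 CPM in clone C, so clone D lay between its sister clones. Its log2 fold change was 0.07 ± 0.08 (SE; adjusted p = 0.665, edgeR), while clone D was higher than clone A (adjusted p = 0.0443) and was not called against clone C (adjusted p = 0.139). MCL1, the short-lived BCL2 relative that can replace it, had 446 and 490 CPM in clone D, against 428 to 452 CPM in clones A and C (0.08 ± 0.08 log2 units, SE; adjusted p = 0.633). BCL2L1, which codes for BCL-XL, had 22.2 and 21.5 CPM in clone D, against 14.5 to 17.97 CPM (0.45 ± 0.12 log2 units, SE; adjusted p = 0.0737), and passed only with the replicate block (adjusted p = 0.00331). Of the 4 tested anti-apoptotic genes, edgeR without the block and DESeq2 called none, and 1 had an unadjusted p under 0.05.

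Among 9 tested pro-apoptotic BCL2-family genes, 1 was lower, a share of 11.1%, near the 9.23% of all genes called; 5 were lower with the replicate block, where 13.6% of all genes were. BMF, a BH3-only gene, had 1.89 and 1.18 CPM in clone D, against 3.82 and 3.86 CPM in clone A and 5.21 and 4.61 CPM in clone C (log2 fold change -1.54, adjusted p = 0.0209); it was not called against A alone, and leaving out any library but D replicate 1 ended the call (adjusted p = 0.0641 to 0.131). BCL2L11, which codes for BIM, had 167 and 181 CPM in clone D, against 189 to 220 CPM in the other clones (log2 fold change -0.22, adjusted p = 0.105; with the block 0.00302). PMAIP1, which codes for NOXA, had 26.6 and 25.6 CPM in clone D, against 27.2 and 24.5 CPM in clone A and 40.7 and 35.5 CPM in clone C (adjusted p = 0.198; with the block 0.0319). BAX had 26.1 and 28.0 CPM in clone D, against 31.7 to 34.3 CPM (adjusted p = 0.128; with the block 0.0247), and BAK1 (0.16, adjusted p = 0.416) and BBC3 (0.02, adjusted p = 0.978) were not called in either fit.

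Members of the death receptor list were higher where they were called. The list holds receptors of the extrinsic pathway of apoptosis and also CFLAR, an inhibitor of that pathway. Of 11 tested, 4 were higher and none lower, a share of 36.4% against 9.23% of all genes, with a median log2 fold change of 0.40; with the block 5 were higher and 1 lower, against 16.1% and 13.6% of all genes, and 2 or 3 were called with any 1 library left out. CFLAR, which codes for the caspase-8 inhibitor FLIP, had 96.3 and 123 CPM in clone D, against 53.6 to 65.1 CPM in clones A and C (0.91 ± 0.12 log2 units, SE; adjusted p = 0.00518 in edgeR). FAS had 16.99 and 19.0 CPM in clone D, against 5.39 and 5.87 CPM in clone A and 15.6 and 12.8 CPM in clone C, and was called against clone A but not against C (adjusted p = 0.323); without D replicate 3 its call against the mean ended (adjusted p = 0.0501). TNFRSF1B (0.54) and TNFRSF10B (0.47), which code for TNF and TRAIL receptors, were called, but TNFRSF1B lost its call without A replicate 1, A replicate 3, C replicate 3 or D replicate 1 (adjusted p up to 0.0909), and TNFRSF10B without A replicate 1, C replicate 1, C replicate 3 or D replicate 3 (up to 0.131). Of 14 caspases and inhibitor of apoptosis genes, 1 was called (7.14%, against 9.23% of all genes). With the block 5 were higher and 2 lower, where 16.1% and 13.6% of all genes were. BIRC3, an inhibitor of apoptosis and NF-kB target, had 58.4 and 70.6 CPM in clone D, against 31.8 to 42.5 CPM in clones A and C (0.81 ± 0.10 log2 units, SE; adjusted p = 0.00482).

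Called genes of MHC class I were higher, as were 6 of 7 called interferon-stimulated genes. Of 19 class I genes, 5 were higher and none lower (median log2 fold change 0.18), a share of 26.3% against 9.23% of all genes; with the block 11 were higher and 2 lower, against 16.1% and 13.6% of all genes, and 1 to 3 were called with any 1 library left out. PSMB9, an immunoproteasome subunit, had 30.7 and 23.6 CPM in clone D, against 13.04 to 14.4 CPM in clones A and C (1.00 ± 0.14 log2 units, SE; adjusted p = 0.00635 in edgeR). PSMB8 (0.70), the peptide transporter genes TAP1 (0.52) and TAP2 (0.34) and HLA-B (0.29) were called too. Leaving out any 1 library ended the call of HLA-B (adjusted p = 0.105 to 0.183), any but D replicate 3 that of PSMB8 (0.0560 to 0.0730), any but D replicate 1 that of TAP2 (0.115 to 0.267), and A replicate 1, A replicate 3, C replicate 3 or D replicate 1 that of TAP1 (0.0523 to 0.0976). Of 21 interferon-stimulated genes, 6 were higher and 1 lower (median 0.39), a share of 33.3%; with the block 9 were higher and 2 lower, and 3 to 5 were called with any 1 library left out. IFITM1, a restriction factor, had 4.25 and 5.26 CPM in clone D, against 0.353 to 1.01 CPM in clones A and C, and IFIT5 had 18.7 and 21.9 CPM, against 6.33 to 9.10 CPM. PARP14 (log2 fold change 0.97) and SAMD9L (0.58) were each called against 1 clone (A for PARP14, C for SAMD9L), DTX3L (1.27) and USP18 (2.10) against the mean, and IFI6 (-2.80) was the member called lower. SAMD9L lost its call without A replicate 1 (adjusted p = 0.0509) or D replicate 3 (adjusted p = 0.0553). IFI6 lost it with every library left out in turn (adjusted p = 0.0619 to 0.121), DTX3L with any but D replicate 1 (0.0649 to 0.1002) and USP18 with any but A replicate 3 (0.0502 to 0.0896). Outside the list, the interferon-induced GTPase gene GBP1 had 0 counts in clone D, against 1.78 to 5.92 CPM in clones A and C, at least 21.1-fold lower.

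MAPK feedback genes, which ERK signalling induces, had 1 higher and 3 lower of 14 tested, with a median log2 fold change of -0.17 and a share called of 28.6%, against 9.23% of all genes; with the block 3 were higher and 5 lower, where 29.7% of all genes were called. The higher member was CCND1. Besides ETS1, PHLDA1 had 10.1 and 8.80 CPM in clone D, against 61.1 and 53.02 CPM in clone A and 75.9 and 78.7 CPM in clone C (log2 fold change -2.83 ± 0.12 SE, adjusted p = 4.63e-05 in edgeR). DUSP5, a phosphatase that inactivates ERK, had 5.35 and 5.35 CPM in clone D, against 19.6 to 27.3 CPM in clones A and C (-2.07 ± 0.14 log2 units, SE; adjusted p = 0.000348). ETS1, PHLDA1 and DUSP5 stayed called with any 1 library left out.

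The NF-kB targets LTB and LTA, genes of lymphotoxin, were lower, and BIRC3 and TNFAIP8 were higher, among 21 tested. The share called was 19%, against 9.23% of all genes. With the block 4 were higher and 3 lower, where 16.1% and 13.6% of all genes were. LTB had 0.472 and 0.454 CPM in clone D, against 5.62 and 6.64 CPM in clone A and 7.95 and 11.3 CPM in clone C (log2 fold change -4.03 ± 0.34 SE, adjusted p = 0.000840 in edgeR). The calls of LTA and TNFAIP8 ended with every library left out in turn, with adjusted p-values of up to 0.113 and 0.137.

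Cell cycle genes differed little in size. Their counts with the replicate block stand against 16.1% of all genes higher and 13.6% lower. In the cyclin D list 5 of 15 were higher and none lower (median log2 fold change 0.21), where 4.41% of all genes were higher; with the block 7 were higher and 3 lower, and 3 were called with any 1 library left out. The CDK inhibitor gene CDKN1A had 47.2 and 41.9 CPM in clone D, against 19.7 to 24.3 CPM in clones A and C (1.00 ± 0.10 log2 units, SE; adjusted p = 0.00167 in edgeR). E2F2 (0.62) and RBL1 (0.53) were the other members whose calls held. Of 38 G2/M genes 6 were higher and none lower (median 0.14), a share of 15.8% against 9.23% of all genes; with the replicate block 18 were higher and 2 lower, where 16.1% and 13.6% of all genes were, and 0 to 3 were called with 1 library left out. Of 39 S phase genes 2 were lower and none higher (median -0.12), a share of 5.13%, near the 4.81% of all genes called lower; with the block 15 were lower and 2 higher, and none was called with any 1 library left out. HMMR, a mitotic spindle gene, shows the size of these differences, with 112 and 106 CPM in clone D, against 81.8 to 86.1 CPM in clones A and C; its call ended with every library left out in turn (adjusted p = 0.0501 to 0.0905).

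Genes of large cellular machines and stress programmes had median differences near 0. The share called was 1.19% of 84 ribosomal protein genes, 1.30% of 77 oxidative phosphorylation genes, 7.14% of 42 proteasome genes and 12.5% of 32 unfolded protein response genes, against 9.23% of all genes, and their median log2 fold changes were -0.05, -0.01, -0.02 and 0.07. With the replicate block, 4 and 15 ribosomal protein genes, 4 and 11 oxidative phosphorylation genes, 3 and 9 proteasome genes and 11 and 3 unfolded protein response genes were higher and lower, against 29.7% of all genes called. No gene was called by edgeR among 18 of mitochondrial cristae and dynamics, 18 drug efflux pumps and 21 of the amino acid stress response; 1, 3 and 2 had an unadjusted p under 0.05, DESeq2 called 0, 0 and 1, and with the replicate block 3, 7 and 7 were called. Of 12 cereblon and substrate genes IKZF1, a lenalidomide substrate, was the 1 called (66.4 and 63.6 CPM in clone D, against 39.3 to 47.8 CPM; adjusted p = 0.0125), and its call ended without A replicate 3 (adjusted p = 0.0532) or D replicate 1 (adjusted p = 0.0533). CRBN, the lenalidomide receptor, had 38.4 and 41.8 CPM in clone D, against 34.4 to 40.6 CPM in the other clones (adjusted p = 0.464), and IKZF3 was not called either (-0.07, adjusted p = 0.887).

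**Figure D4:**
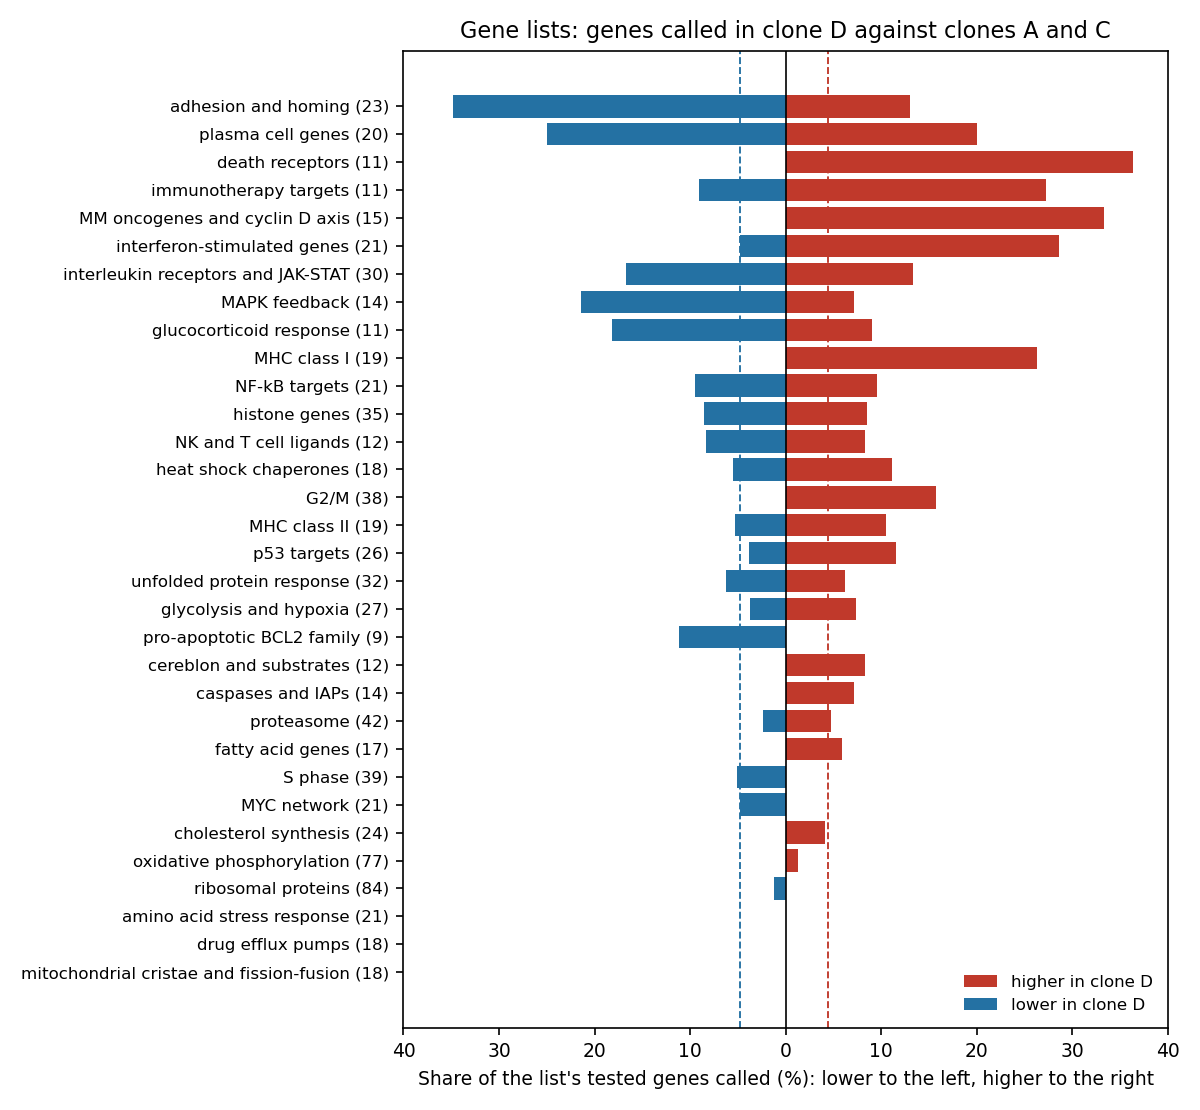
Share of each list's tested genes (number in brackets) called higher (right, red) or lower (left, blue) in clone D against clones A and C. Dashed lines mark the share over all tested genes, 4.41% higher and 4.81% lower. Lists with fewer than 9 tested genes are not drawn, among them the immunoglobulin genes (3 of 5 lower, with IGLL5 and IGLC1 overlapping). Among the lists drawn, adhesion and homing reaches farthest to the left, and death receptors farthest to the right.

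Differences between the clones also followed chromosomes. The counts by chromosome stand against 4.41% of all tested genes higher and 4.81% lower (16.1% and 13.6% with the replicate block). At the end of the long arm of chromosome 17 (80 to 100 Mb), 29 of 56 tested genes were higher in clone D and 1 lower, with a median log2 fold change of 0.55. The difference lay in clone C, since the median was -0.01 between clones D and A, 1.07 between D and C, and -1.06 between C and A. FOXK2 shows the pattern, with 184 and 182 CPM in clone D, against 188 and 183 CPM in clone A and 76.5 and 77.0 CPM in clone C. From 70 to 80 Mb, 17 of 79 tested genes were higher in clone D and 0 lower. The medians there were -0.02 between D and A, 0.20 between D and C, and -0.19 between C and A. With the replicate block, 44 genes from 80 to 100 Mb were higher and 2 lower. Without the genes of the 80 to 100 Mb window alone, the comparison with the mean kept 1101 calls, and 539 genes were set apart in clone D. Leaving out 1 library left 14 to 23 of the genes of this window called.

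Near the start of chromosome 2 (0 to 30 Mb), clone D was lower than both sister clones. From 0 to 20 Mb, 20 of 38 tested genes were lower and 1 higher, with a median log2 fold change of -0.45 (-0.26 against A and -0.53 against C). From 20 to 40 Mb, 36 of 95 were lower and 4 higher, with a median of -0.35. That window was uneven, since 33 of 61 genes were lower from 20 to 30 Mb (median -0.46), against 3 lower and 3 higher of 34 from 30 to 40 Mb. The next windows, from 40 to 100 Mb, had medians of 0.04 to 0.07. With the replicate block, 28 genes from 0 to 20 Mb were lower and 2 higher. From 20 to 40 Mb the block gave 52 lower and 10 higher, where 13.6% and 16.1% of all genes were. DDX1, an RNA helicase gene beside MYCN, had 218 and 214 CPM in clone D, against 330 and 332 CPM in clone A and 368 and 331 CPM in clone C (-0.65 ± 0.08 log2 units, SE; adjusted p = 0.00316 in edgeR). MYCN itself lies between 0 and 20 Mb. With 1 library left out, 8 to 17 genes of the first window and 11 to 29 of the second were called lower.

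Chromosome 13 leaned the other way. Of its 195 tested genes 33 were higher and 3 lower in clone D, 77.9% had a log2 fold change above 0, and the median was 0.22 (0.23 against A and 0.20 against C). The calls rested on all 6 libraries, since 7 to 13 were higher with any 1 left out. RB1, the retinoblastoma tumour suppressor gene on chromosome 13, was a member of the cyclin D list called higher, with 83.7 and 75.5 CPM in clone D, against 52.3 to 61.8 CPM in clones A and C (0.47 ± 0.10 log2 units, SE; adjusted p = 0.0289 in edgeR), though against neither clone alone, and every library left out in turn ended the call (adjusted p = 0.0520 to 0.121). Chromosome 18 had 4 higher and 13 lower genes of 143 and a median of -0.10, where 9.23% of all genes were called. With the replicate block, 11 genes of chromosome 18 were higher and 45 lower, where 16.1% and 13.6% of all genes were. On chromosome 13 the block gave 84 higher and 17 lower. The windows of chromosome 18 differed, with medians of -0.21 from 0 to 20 Mb and 0.11 from 60 to 80 Mb. In 10 Mb windows, the start of chromosome 1 (0 to 10 Mb) had 14 higher and 1 lower of 80 tested genes. Its median was 0.32 (0.26 against A and 0.33 against C). DNA copy number was not analysed here, and its part in these differences was not tested.

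**Figure D5:**
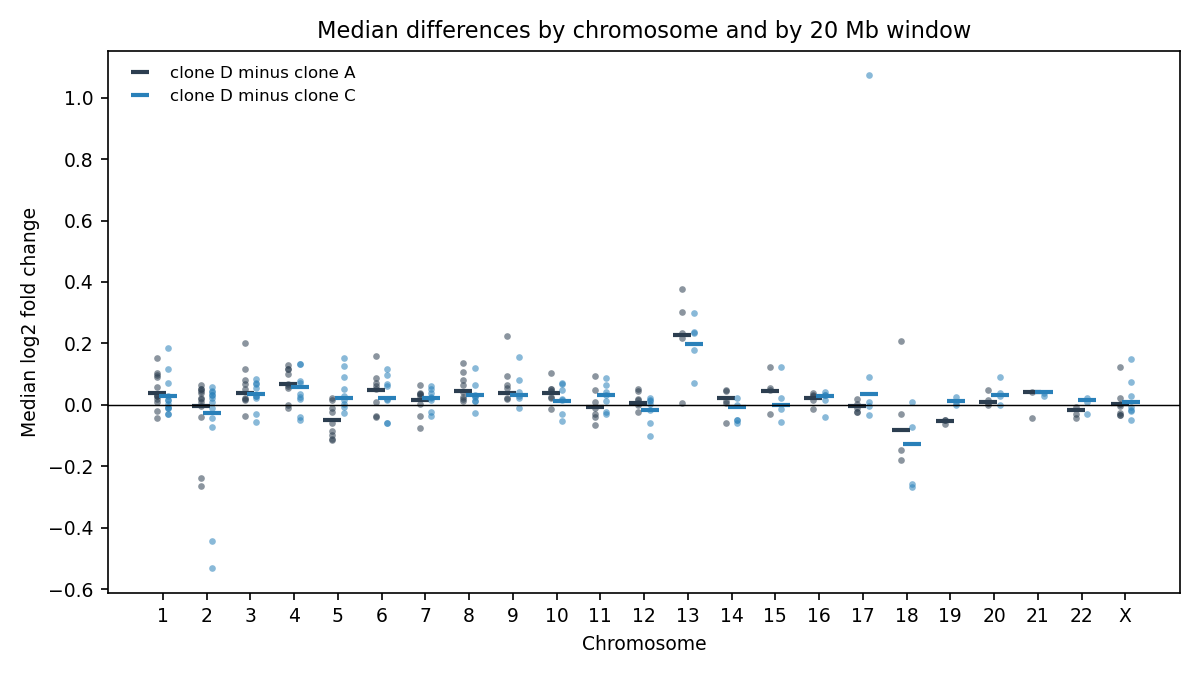
Median log2 fold change of tested genes per chromosome (bars) and per 20 Mb window with at least 20 tested genes (points), for clone D minus clone A (dark) and clone D minus clone C (blue). The 17q end appears only in the difference from clone C (1.07), while the windows of chromosome 2 from 0 to 40 Mb (below 0) and chromosome 13 (above 0) appear in both.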

How the data were processed

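PolyA RNA of each library was made into Kapa mRNA libraries, per the labels' protocols. The authors deposited raw counts per gene (whole numbers, not normalized) on hg38, per the submitters' processing notes (aligner, counter, strand setting: not given in the sources used here). That table also held the parental columns, which were left out except in the fit of all 8 KMS12PE libraries.

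CPM were computed from each library's total multiplied by its TMM factor. Counts were scaled by TMM, filtered with filterByExpr (336 genes left out) and fitted in edgeR 4.0.16 (R 4.3.3) with 1 mean per clone over the 6 libraries; the comparison of clone D with A and C weighted the means of A and C equally. Adjusted p-values are Benjamini-Hochberg over 12256 genes, and ± gives the SE computed as the log2 fold change over the root of F. The code was tested on simulated data. Same-numbered libraries deviated from their clone means together (r = 0.44 for D and A, 0.53 for D and C, 0.43 for C and A). The replicate numbers may therefore pair the libraries. Calls and p-values are nevertheless from the fit without a block unless the block is named. Counts from a fit with the number as a block are given beside them for most lists and windows. Replicates of each clone differed beyond sampling noise. Common biological variation was 12.5%.

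Positions came from RefSeq genes on GRCh38.p14, with 11588 of 12592 genes matched (10995 symbols and 603 synonyms over all RefSeq entries). Alternatives were RLE scaling, library totals, other filters, DESeq2 1.42.0, all 8 KMS12PE libraries, A and C as 1 group, and each library left out. Genes were named as the 12 largest rises and falls set apart in clone D with a mean log2 CPM of 3 or more, up to 6 each way at any level, a fixed set of BCL2-family, target and cereblon genes, up to 4 called genes per list by adjusted p, and up to 3 in each of the 4 windows with the largest medians. Other genes named as list members or neighbours were chosen after their values were seen. The comparison, the lists and the named set were chosen with earlier results of these data known.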

Additional observations from a re-analysis of the deposited data

How the results depend on the processing

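With the replicate number as a block, calls numbered 3641 for clone D against A and C (1131 without it), 2028 for genes set apart in clone D (541), 3103 for D against A (769), 3264 for D against C (941), 1056 for C against A (140), 308 for the gene lists (101) and 151 for the 4 windows (95). The block made calls of BCL2L1, BCL2L11, PMAIP1, BAX and CD38 and ended no other call among the named genes. It also moved the share of higher genes among those set apart to 51.1%, against 37.7% without it. With 1 library left out, the 7 counts ranged over 539 to 718, 186 to 388, 232 to 550, 339 to 682, 9 to 187, 47 to 61 and 41 to 71; these fits keep 2 residual degrees of freedom, and the lone library of a clone is assumed to vary like the others. BBC3 changed sign without A replicate 1 (-0.07), C replicate 1 (-0.03) and D replicate 3 (-0.38), and IKZF3 without A replicate 3 (0.03), C replicate 3 (0.05) and D replicate 1 (0.21); over these fits BBC3 ranged from -0.38 to 0.26 and IKZF3 from -0.48 to 0.21, and neither was called. The cause was not tested. Under RLE scaling, library totals, no low-count filter, a minimum of 1 CPM, DESeq2, all 8 libraries and A and C as 1 group, the main count stayed between 904 and 1204. Of 116 named genes called, 69 stayed called in all settings. Of 572 list and chromosome medians recomputed under the alternatives, 42 changed sign. A count of 3 equals 0.213 to 0.472 CPM in these libraries, so depth limits what can be said of levels near 0.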
